A study of Mus musculus with 8 samples.

Results

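The miR-99/100 and miR-125 miRNAs of the mouse retina were followed here with 6 probes of a NanoString panel: mmu-miR-99a, mmu-miR-99b, mmu-miR-100, mmu-miR-125a-5p, mmu-miR-125b-5p and mmu-miR-125b-3p (mmu, for the mouse, is left out below). The members were taken by their names and come from the 3 genomic clusters that pair a miR-99/100 gene with a let-7 gene and a miR-125 gene. They are not all arms of these clusters: the let-7 miRNAs and miR-125a-3p are described beside them. All 6 were found among the 566 mouse miRNA probes (599 miRNA probes with the viral ones). The study asked which miRNAs distinguish Müller glia (MG), the main glia of the retina, from retinal neurons, and how the glial profile changes with maturation and in culture. All mice carried the reporter genotype labelled Rlbp-Cre:tdTomato, in which an Rlbp1-driven, tamoxifen-inducible Cre switches on tdTomato. Rlbp1 is also active in pigmented and ciliary epithelium, which the study removed by dissection.

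The samples were adult MG and adult neurons (tdTomato+ and tdTomato- sorted cells of 40 pooled retinas, tamoxifen at 75 mg/kg on consecutive days), P11 MG and P11 neurons (the same sorts of 32 pooled retinas at postnatal day 11 or 12, tamoxifen on the days before), and MG grown from postnatal day 11 or 12 retinas with serum and 100 ng/mL EGF for 8 or 14 days in vitro (DIV). The "neurons" are the cells without tdTomato fluorescence and were not selected by a neuronal marker. For the cultures the labels give 20 pooled retinas divided between both time points, a number on which labels and methods differ, and the cells are labelled as cultured, not as sorted. Each condition is 1 pooled sample, so there is no spread between replicates, no test was possible, and the intervals given are exact Poisson 95% limits that cover counting error only. The titles and the age labels of both cultured samples disagree on which is 8 DIV and which 14 DIV; the titles, which the sample descriptions and raw column names follow, were used.

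miRNAs of about 22 bases pair with messenger RNAs mainly through the seed, bases 2 to 8 from the 5′ end. The miR-125 family is the vertebrate counterpart of lin-4, which times development in the worm, and it represses Lin28, itself a block on let-7 maturation. The miR-99/100 family is known for targeting components of mTOR signalling. Mammals keep these genes in 3 copies of an ancient arrangement together with let-7.

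The mature sequences of all members are shown because the families are defined by them (RefSeq, GRCm38.p6, seed in capitals). A RefSeq sequence under 1 name was matched for 5 of the 6 members. The probe miR-125b-3p does not say which of the 2 miR-125b hairpins it reads, so both arms are given.
miR-99a: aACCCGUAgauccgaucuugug
miR-99b: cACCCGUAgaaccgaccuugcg
miR-100: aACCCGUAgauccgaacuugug
miR-125a-5p: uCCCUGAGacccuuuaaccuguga
miR-125b-5p: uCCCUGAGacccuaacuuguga
miR-125b-1-3p: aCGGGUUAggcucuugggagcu
miR-125b-2-3p: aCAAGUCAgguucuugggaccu

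miR-99a, miR-99b and miR-100 share 1 seed, which no other mature mouse miRNA of the RefSeq table carries. Counted from the 5′ end, miR-100 differs from miR-99a by the single substitution U16A. miR-99b differs from miR-99a by A1C, U11A, U16C and U21C. miR-125a-5p and miR-125b-5p share the other seed and are 3 edits apart; 5 mature names carry this seed, miR-351-5p among them. The 3p arms of the 2 miR-125b hairpins differ at 5 positions, 3 of them in the seed (G3A, G4A and U7C), whereas their 5p arms are identical, so a miR-125b-5p count cannot be assigned to either gene.

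The cluster on chromosome 9 holds Mir100 (chr9:41531425-41531504), Mirlet7a-2 and Mir125b-1 (chr9:41581926-41582002) over 50.6 kb, all on the plus strand inside the long non-coding RNA gene Mir100hg. The cluster on chromosome 16 holds Mir99a (chr16:77598936-77599000), Mirlet7c-1 and Mir125b-2 (chr16:77646273-77646343) over 47.4 kb. No host gene spans it in the RefSeq table, where Mir99ahg ends 40508 bases upstream of Mir99a. The cluster on chromosome 17 is compact: Mir99b (chr17:17830188-17830257), Mirlet7e and Mir125a (chr17:17830812-17830879) lie within 692 bases inside the protein-coding gene Spaca6. The hairpin of Mir125b-1 is shown with both mature arms in capitals, since the panel reads a 5p and a 3p arm of miR-125b.
Mir125b-1: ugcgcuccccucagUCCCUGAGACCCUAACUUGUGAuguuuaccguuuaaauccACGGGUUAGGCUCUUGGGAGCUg

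The raw counts of all mouse miRNA probes summed to between 273572 (P11 neurons) and 695390 (adult MG), and 129 to 186 probes lay above background, set 2 SD above the mean of the 8 negative controls. miR-124 and the cluster of miR-96, miR-182 and miR-183, known from retinal neurons and photoreceptors, took 48.2% of the counts in adult neurons and 24.6% in P11 neurons, but 0.265% to 0.514% in the 4 MG samples, where miR-182 was at background. miR-204 and miR-9, which the study names for MG and which are therefore no independent check, took 45.0% and 38.9% in adult and P11 MG, 1.94% and 8.20% in the neurons, and 17.7% and 13.0% at 8 and 14 DIV. Of the 5 mesenchymal miRNAs (miR-143, miR-145, miR-199a-3p, miR-199a-5p and miR-214), none was above background in fresh MG, 4 were at 8 DIV and 5 at 14 DIV, with 0.796% and 4.51% of the counts in culture. miR-451 of red blood cells was above background only in the 2 neuronal samples, with 1599 raw counts in adult and 371 in P11 neurons. Of the 3 miRNAs taken for pigmented epithelium, miR-211 was highest in the neuronal samples, with 3772 raw counts in adult and 2680 in P11 neurons against 100 to 329 in MG. miR-221 was at background in adult and P11 MG (69 and 45) and above it in culture, with 681 raw counts at 8 DIV and 620 at 14 DIV, and so was miR-222 (28 and 21 against 100 and 149). miR-223 of myeloid cells was above background only at 14 DIV, with 158 raw counts. miR-126-3p of endothelium was above background in all 6 samples, from 66 raw counts at 14 DIV to 360 in P11 MG. Of the oligodendrocyte miRNAs, miR-338-3p was above background in all 6, from 149 in P11 neurons to 565 in adult MG. The other, miR-219, was at background in every sample. The part of any other cell type in the members' levels was not tested. In such pools fewer cells of a type and less RNA per cell cannot be told apart.

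Together the 6 members made up 17.7% of the summed mouse miRNA signal of adult MG and 10.6% of that of P11 MG. Their share was 1.99% in adult neurons and 3.97% in P11 neurons, and it was 16.8% and 20.9% in MG at 8 and 14 DIV. The miR-125 5p seed family carried most of it, with 14.4% of the counts in adult MG, 7.55% in P11 MG, 14.5% at 8 DIV and 18.1% at 14 DIV. The miR-99/100 seed family took 3.27%, 2.97%, 2.22% and 2.73% in the same samples. In adult and P11 neurons the miR-125 5p family took 1.58% and 3.11%, and the miR-99/100 family 0.392% and 0.835%. These shares use raw counts and need no scaling between samples, but the rest of the panel moves them.

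miR-125b-5p gave the highest raw counts of the 6 probes in every MG sample, although probes differ in efficiency and their counts are not levels. It gave 94931 raw counts in adult MG, 3140 in adult neurons, 30204 in P11 MG, 2984 in P11 neurons, 53110 at 8 DIV and 59742 at 14 DIV. By raw count it took place 2 of the mouse panel in adult MG, place 3 in P11 MG and place 1 in both cultures, against places 17 and 19 in adult and P11 neurons. The lowest raw count in MG thus lay far above the highest in neurons. With the housekeeping scaling described below the gap was narrower, 22204 in P11 MG against 10768 in adult neurons. Its 3p arm, the usually discarded strand, gave 500 and 215 raw counts in adult and P11 MG, 330 at 8 DIV and 356 at 14 DIV, and was at background in adult neurons (56) and P11 neurons (69).

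miR-99a, from the cluster on chromosome 16, had 17195 raw counts in adult MG, 833 in adult neurons, 11476 in P11 MG, 1675 in P11 neurons, 4847 at 8 DIV and 4715 at 14 DIV. By raw count it was high in both fresh MG samples and intermediate in the cultures. With the housekeeping scaling described below, the cultures (2566 at 8 DIV, 2297 at 14 DIV) lay between adult neurons (2775) and P11 neurons (1960). miR-100, its counterpart on chromosome 9, had 4910 raw counts in adult MG, 2053 in P11 MG, 3022 at 8 DIV and 3139 at 14 DIV. In neurons it was at background, with 23 raw counts in the adult sample against a background of 69.9 and 62 in the P11 sample against 87.0. Although miR-100 and miR-99a differ in 1 base, the miR-100 probe was therefore at background in samples in which the miR-99a probe gave 833 and 1675 counts.

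The members of the cluster on chromosome 17 had another pattern. miR-125a-5p gave 4921 raw counts in adult MG, 2380 in adult neurons, 6348 in P11 MG, 5534 in P11 neurons, 11089 at 8 DIV and 11081 at 14 DIV. miR-99b gave 623, 511, 832, 547, 1959 and 2825 in the same order. For both, the raw counts were highest in the cultures. This order did not hold with the housekeeping scaling described below, where both were highest in adult neurons. miR-99b then had 1660 scaled counts there, against 1026 at 8 DIV and 1372 at 14 DIV. miR-125a-5p had 8135 against 5895 and 5415. Among the 4 fresh samples miR-99b lay between 511 and 832 and miR-125a-5p between 2380 and 6348. The plot of raw counts by sample shows the contrast between these 2 probes and the other 4.

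**Figure D1:**
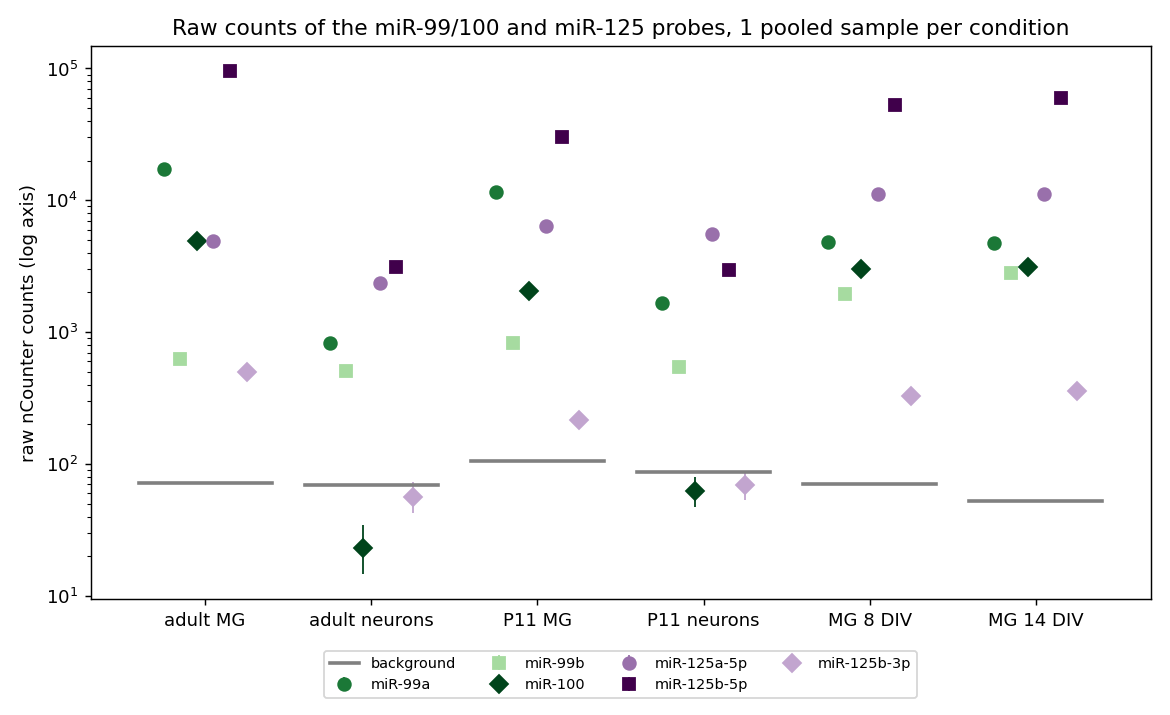
Raw nCounter counts (log axis) of the 6 probes in each of the 6 pooled samples, with exact Poisson 95% limits, mostly smaller than the symbols; grey lines mark background in each sample. miR-100 and miR-125b-3p lie above background in all 4 MG samples and below it in both neuronal samples; counts of different probes are not comparable as levels, since probes differ in efficiency.

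To compare samples, the mean of the negative controls was subtracted and counts were scaled to the sum of 4 housekeeping mRNAs (Actb, Gapdh, Rpl19 and B2m), as the study did; values below background were set to it, so that a ratio against them is a lower bound. The choice of scaling matters here. Raw Actb was 1025 in adult neurons and 12624 at 14 DIV, and raw B2m ran from 17 in adult neurons to 7308 at 8 DIV. Each ratio was therefore also read against the median of all probes tested in that comparison, a difference that no scaling changes. A probe was tested in a comparison when it was above background in at least 1 of the 2 samples, and a change of at least 2-fold was counted. The 7 comparisons share samples and are not independent of each other.

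In adult MG against adult neurons, 4 of the 6 members were at least 2-fold higher in MG and 1 was at least 2-fold lower. Over the 199 probes tested, 8.04% were higher and 66.3% lower. With the other scalings the panel split between 5.03% and 40.2% higher and between 10.1% and 86.4% lower, which is why the members' place in the panel is given beside each ratio. The median log2 ratio of the members was 2.22 and that of the panel -1.67, a distance of 3.89. The medians of the members' lower and upper counting limits, with the panel median held fixed, gave 3.76 to 4.02. miR-99a and miR-125b-3p set the members' median, the latter at its lower bound, so this median is a lower bound as well.

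miR-100 had 4871 scaled counts in adult MG and lay below the background of 132 in adult neurons, a ratio of at least 37.0, no other probe's ratio being above it. miR-125b-5p had 94892 scaled counts against 10768, 8.81-fold higher (8.45 to 9.19) and in place 3. miR-99a had 17156 against 2775, 6.18-fold higher (5.67 to 6.74) and in place 9, and miR-125b-3p was at least 3.50-fold higher. These 4 directions held under each of the other 7 scalings that could be computed, but the sizes did not. The log2 ratio ran from 4.19 to 7.59 for miR-100, from 2.12 to 5.52 for miR-125b-5p, from 1.61 to 5.01 for miR-99a and from 0.79 to 4.19 for miR-125b-3p. With Actb alone miR-125b-3p was under 2-fold and 3 members were counted as higher. Both bounds rest on how background is handled. Without its subtraction, values below background were still set to the background level. The log2 bounds of miR-100 and miR-125b-3p were then 4.38 and 1.08, which are again lower bounds and not estimates of the ratio. B2m alone could not be used, as it was at background in adult neurons.

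The cluster on chromosome 17 stood apart. miR-99b was 2.84-fold lower in adult MG (2.38 to 3.39), with 584 scaled counts against 1660, in place 90 of 199. miR-125a-5p was 1.67-fold lower (1.56 to 1.79), with 4882 against 8135, in place 47. Relative to the panel median, their log2 ratios were 0.16 and 0.93 higher. The direction of both depended on the scaling: miR-99b was higher in MG under 3 of the other 7 scalings and miR-125a-5p under 6.

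Between the members of 1 family the scaling cancels. miR-125b-5p exceeded miR-125a-5p in log2 ratio by 3.88 (3.72 to 4.04), and miR-99a exceeded miR-99b by 4.13 (3.75 to 4.52). Within each sample, the counts of miR-125b-5p stood to those of miR-125a-5p as 19.4 to 1 in adult MG and 1.32 to 1 in adult neurons. The counting limits of these ratios do not overlap, but the spread between pools of the same kind is unknown.

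P11 MG against P11 neurons gave the same 4 members at least 2-fold higher and none at least 2-fold lower. Over 171 probes tested, 17.0% were higher and 21.6% lower, and over the other scalings 5.26% to 57.9% were higher and 7.60% to 63.2% lower. miR-100 again had a ratio that no other probe's exceeded, at least 27.6, from 1475 scaled counts against a background of 53.5. miR-125b-5p was 6.29-fold higher (5.99 to 6.60), from 22204 against 3532 scaled counts, and miR-99a 4.29-fold higher (4.01 to 4.59), from 8413 against 1960. miR-125b-3p, with 121 scaled counts in P11 MG, was at least 2.27-fold higher. Without background subtraction, but with values below background still set to it, the log2 lower bounds of miR-100 and miR-125b-3p were 3.86 and 0.61.

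Here miR-99b differed by less than the counting error, at 576 scaled counts in P11 MG and 606 in P11 neurons, while miR-125a-5p was 1.42-fold lower in MG. Over the other 7 scalings the log2 ratio of miR-99b ran from -1.32 to 1.29 and that of miR-125a-5p from -1.75 to 0.86. The members' median stood 1.79 above that of the panel on the log2 scale (1.60 to 1.96). It was again set by miR-99a and by the lower bound of miR-125b-3p, and so is a lower bound itself. The P11 neurons had the lowest ligation controls, with 4966 raw counts of the strongest one against 12313 to 19166 in the other samples. With counts scaled by the ligation controls, 2 members were at least 2-fold higher in P11 MG and 2 at least 2-fold lower. miR-100 (log2 ratio 3.54) and miR-125b-5p (1.41) stayed past 2-fold, miR-99a was higher by 0.86, the bound for miR-125b-3p fell just below 0, and miR-99b (-1.32) and miR-125a-5p (-1.75) were lower.

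**Figure D2:**
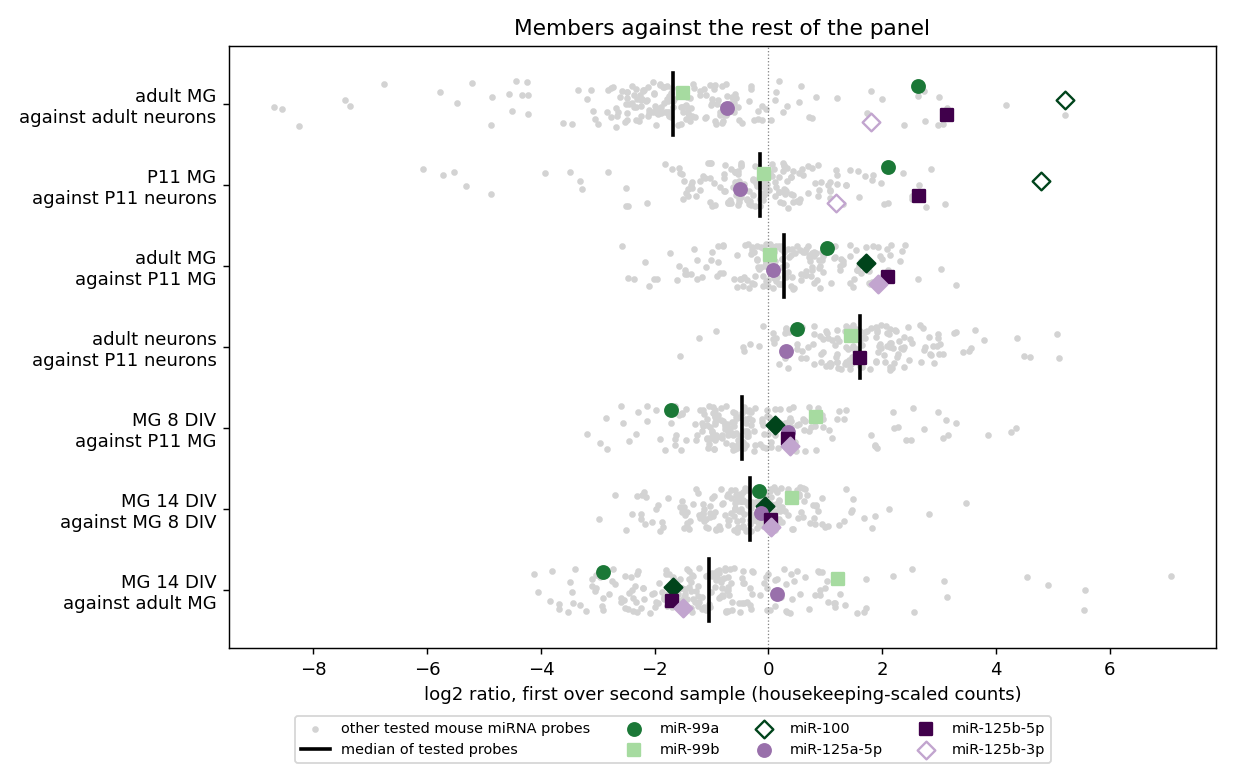
Log2 ratios (first over second sample, housekeeping-scaled counts) of the tested mouse miRNA probes (grey points) in the 7 comparisons, with the members as coloured symbols; black bars are the panel medians and open symbols are lower bounds, where the second sample was at background. In both comparisons of MG with neurons no probe lies to the right of miR-100, drawn at its lower bound. miR-99b lies near the panel median in both, and miR-125a-5p lies 0.93 above it in the adult and below it in the P11 comparison.

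Adult MG were set against P11 MG to follow maturation. The same 4 members were at least 2-fold higher in adult MG and none was at least 2-fold lower, where 24.6% of the 179 probes tested were higher and 11.2% lower. Over the other scalings 6.70% to 38.0% of the panel were higher and 7.82% to 34.1% lower. miR-125b-5p was 4.27-fold higher (4.20 to 4.35), miR-125b-3p 3.81-fold (2.91 to 5.03), miR-100 3.30-fold (3.07 to 3.55) and miR-99a 2.04-fold (1.97 to 2.11). miR-99b was 1.02-fold higher (0.867 to 1.19) and miR-125a-5p 1.05-fold (0.998 to 1.11), both within counting error of no difference.

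The members did not shift as a block. miR-125b-5p gained 1.07 on miR-99a on the log2 scale (0.99 to 1.14), although 1 of its 2 genes lies in the cluster of miR-99a, and 0.37 on miR-100 (0.24 to 0.50). All 4 were higher in adult MG under each of the 8 other scalings, miR-99a by as little as 0.06 on the log2 scale when equal totals were used. With equal totals 1 member was at least 2-fold higher in place of 4, and with the top 100 probes, the positive controls, Actb or Gapdh 3 were, miR-99a falling short. The median of the members stood 1.11 above that of the panel (0.99 to 1.18).

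In adult against P11 neurons, 76.9% of the 156 probes tested were at least 2-fold higher in the adult sample and 1.28% lower. Over the other scalings these shares ran from 3.21% to 87.8% and from 0.00% to 55.1%, so a rise of 2-fold there is not informative on its own. miR-100 and miR-125b-3p were at background in both neuronal samples and were not tested. Of the other 4, miR-125b-5p (3.05-fold, 2.84 to 3.28) and miR-99b (2.74-fold, 2.28 to 3.30) were higher in adult neurons, at ratios close to the panel median. miR-99a (1.42-fold) and miR-125a-5p (1.23-fold) were in places 136 and 141 of 156. The members' median less that of the panel was -0.64 on the log2 scale (-0.86 to -0.42).

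The comparison of MG at 8 DIV with P11 MG addresses the move into culture. With the housekeeping scaling miR-99a was the only member past 2-fold, and it was lower: 2566 scaled counts at 8 DIV against 8413, 3.28-fold lower (3.13 to 3.44), in place 182 of 196. No member was then at least 2-fold higher. The count depended on the scaling: 1 member was higher with equal totals, 4 with the positive controls, the ligation controls or Gapdh and 5 with Actb, while all 6 were lower with B2m. Over the panel, 12.8% of the probes were higher and 22.4% lower, and over the other scalings 1.02% to 34.7% were higher and 5.61% to 92.3% lower. miR-99a was lower at 8 DIV under all 8 other scalings, with log2 ratios from -4.90 to -0.65, but by less than 2-fold with the positive controls, Actb or Gapdh.

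With the housekeeping scaling the other 5 members lay between 1.08-fold and 1.78-fold higher, and the limits of miR-100 and miR-99b did not overlap. miR-125a-5p and miR-125b-5p were both 1.27-fold higher at 8 DIV, miR-125b-3p 1.29-fold (0.962 to 1.76), miR-100 1.08-fold (0.996 to 1.17) and miR-99b 1.78-fold (1.58 to 2.01). miR-125b-5p and miR-125a-5p, which were 2.02 apart in log2 ratio between adult and P11 MG, differed here by 0.00 (-0.09 to 0.10). The log2 ratio of miR-99a less that of miR-100, its 1-base neighbour in sequence, was -1.82 (-2.01 to -1.64), and that of miR-125b-5p less that of miR-99a was 2.06 (1.97 to 2.16). The median of the members stood 0.81 above the panel median (0.60 to 0.85).

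Between 14 and 8 DIV no member passed 2-fold in either direction, where 6.25% of the 208 probes tested were higher and 22.1% lower at 14 DIV (over the other scalings, 1.44% to 56.2% and 1.44% to 64.9%). The largest difference was that of miR-99b, with 1372 scaled counts at 14 DIV and 1026 at 8 DIV, 1.34-fold higher (1.23 to 1.45). For miR-99b the authors' normalized values of the cultures cannot be used as deposited. They read 351 at 14 DIV and 512 at 8 DIV, where the same procedure applied to the raw counts gave 2152 and 1609, and miR-99b was 1 of the 16 miRNAs in each cultured sample whose deposited value did not follow from its raw count. The other members' deposited values did. Raw counts were therefore used throughout.

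At 14 DIV against adult MG, 4 members were at least 2-fold lower and 1 higher, with 51.2% of the 211 probes tested lower and 10.9% higher. Over the other scalings 10.4% to 90.0% of the panel were lower and 3.32% to 44.1% higher. miR-99a was 7.47-fold lower in culture (7.15 to 7.80), from 17156 to 2297 scaled counts, and it was lower under all 8 other scalings. miR-125b-5p (3.24-fold), miR-100 (3.19-fold) and miR-125b-3p (2.84-fold) were also lower, but turned to slightly higher with equal totals. With equal totals, the top 100 probes, the positive controls or Gapdh, 4 of the 8 other scalings, miR-99a was the 1 member still at least 2-fold lower. miR-99b was 2.35-fold higher (2.08 to 2.65) and miR-125a-5p 1.11-fold higher (1.06 to 1.16). The log2 ratio of miR-99a less that of miR-99b was -4.13 (-4.37 to -3.89). Adult MG and cultures begun from young retinas differ in age as well as in culture, and these cannot be told apart.

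**Figure D3:**
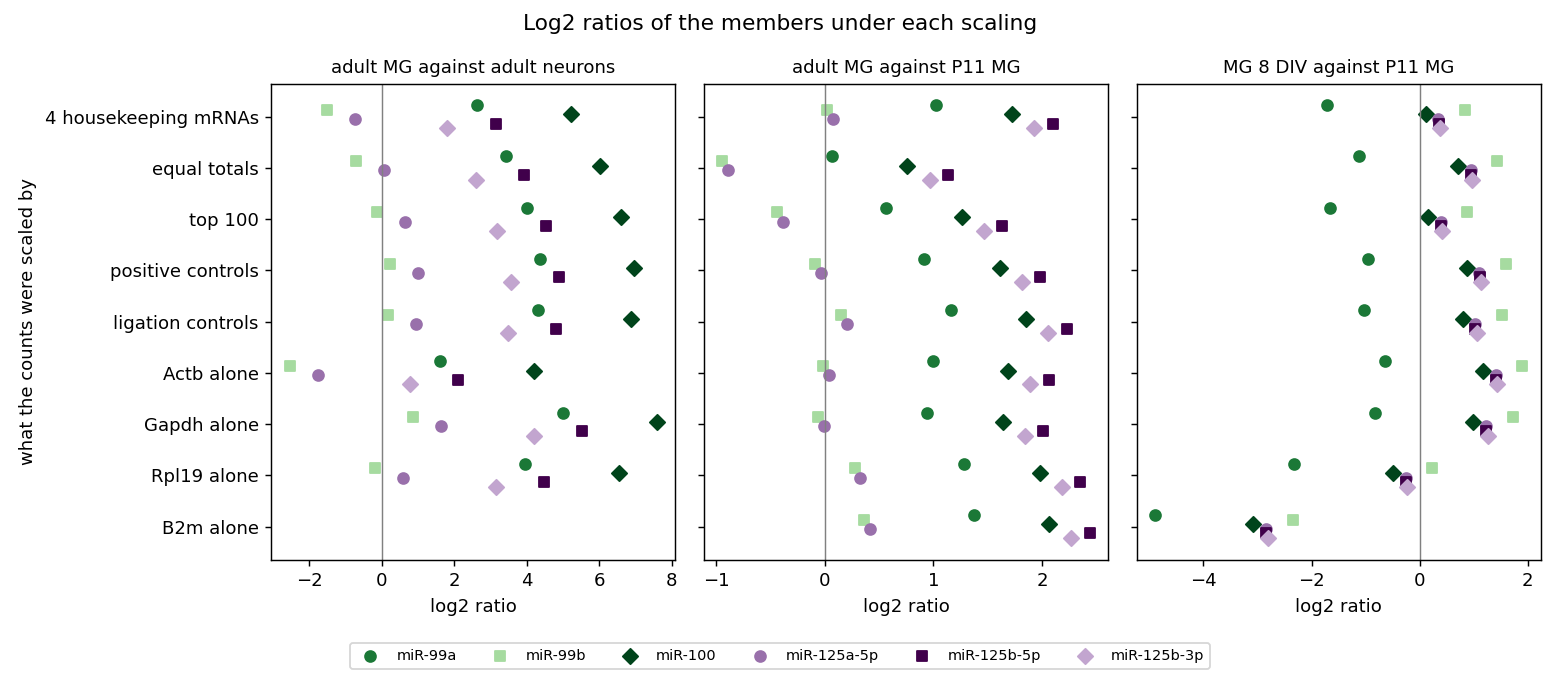
Log2 ratios of the 6 members in 3 comparisons, with counts scaled by the 4 housekeeping mRNAs or by each alternative; B2m alone gives no value against adult neurons, where it was at background. The spacing between members is the same in every row, while the whole row shifts, so miR-99b and miR-125a-5p cross 0 in adult MG against adult neurons and miR-99a stays left of 0 at 8 DIV against P11 MG.

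Ratios of 2 probes within a sample need no scaling, and only their change between samples was read. miR-125b-5p to miR-125b-3p gave 206 (186 to 228) in adult MG, 183 (153 to 223) in P11 MG, 181 (159 to 206) at 8 DIV and 180 (160 to 203) at 14 DIV. The intervals of these 4 overlap while the 5p arm itself ran from 22204 to 94892 scaled counts. In neurons only lower bounds of 81.8 and 66.1 could be given.

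miR-125b-5p to miR-100, whose gene lies on chromosome 9, also varied little among MG: 19.5 (18.8 to 20.2) in adult MG, 15.1 (14.2 to 15.9) in P11 MG, 17.8 (17.0 to 18.6) at 8 DIV and 19.2 (18.4 to 20.0) at 14 DIV. Only the P11 interval lay apart from all others. In adult and P11 neurons the ratio was at least 81.8 and at least 66.1. The lower of these bounds is 3.39 times the highest MG ratio. The miR-125b-5p count cannot be assigned to its gene on chromosome 9 or on chromosome 16. Its ratios to miR-100, and those to miR-99a below, therefore do not describe either cluster alone.

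miR-125b-5p to miR-99a, whose gene lies on chromosome 16, changed more: 5.53 (5.41 to 5.65) in adult MG, 3.88 (3.49 to 4.32) in adult neurons, 2.64 (2.56 to 2.72) in P11 MG and 1.80 (1.65 to 1.96) in P11 neurons. In culture it was 11.0 (10.6 to 11.4) at 8 DIV and 12.7 (12.3 to 13.2) at 14 DIV. At each age MG were higher than neurons, in each cell class adult was higher than P11, and the cultures were highest. miR-99a to miR-100 was 3.52 and 5.71 in adult and P11 MG, 1.61 and 1.51 at 8 and 14 DIV, and at least 21.1 and 36.7 in adult and P11 neurons.

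The paralogues on chromosome 17 also changed against their family. miR-99a to miR-99b was 29.4 (26.6 to 32.5) in adult MG, 14.6 (13.4 to 16.0) in P11 MG, 2.50 (2.32 to 2.69) at 8 DIV and 1.67 (1.57 to 1.79) at 14 DIV. In adult neurons it was 1.67 (1.42 to 1.97), which the value at 14 DIV matched within counting error, and in P11 neurons 3.24 (2.81 to 3.73). miR-125b-5p to miR-125a-5p was 4.79 in P11 MG and 4.80 at 8 DIV, with overlapping intervals, 5.40 (5.26 to 5.55) at 14 DIV and 0.536 (0.503 to 0.571) in P11 neurons.

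Nor did both members of the cluster on chromosome 17 move as 1. miR-99b to miR-125a-5p was 0.120 and 0.124 in adult and P11 MG, with overlapping intervals, then 0.174 at 8 DIV, 0.253 at 14 DIV, 0.204 in adult neurons and 0.0919 in P11 neurons. The highest and lowest of these were 2.76 times apart within a cluster of 692 bases.

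**Figure D4:**
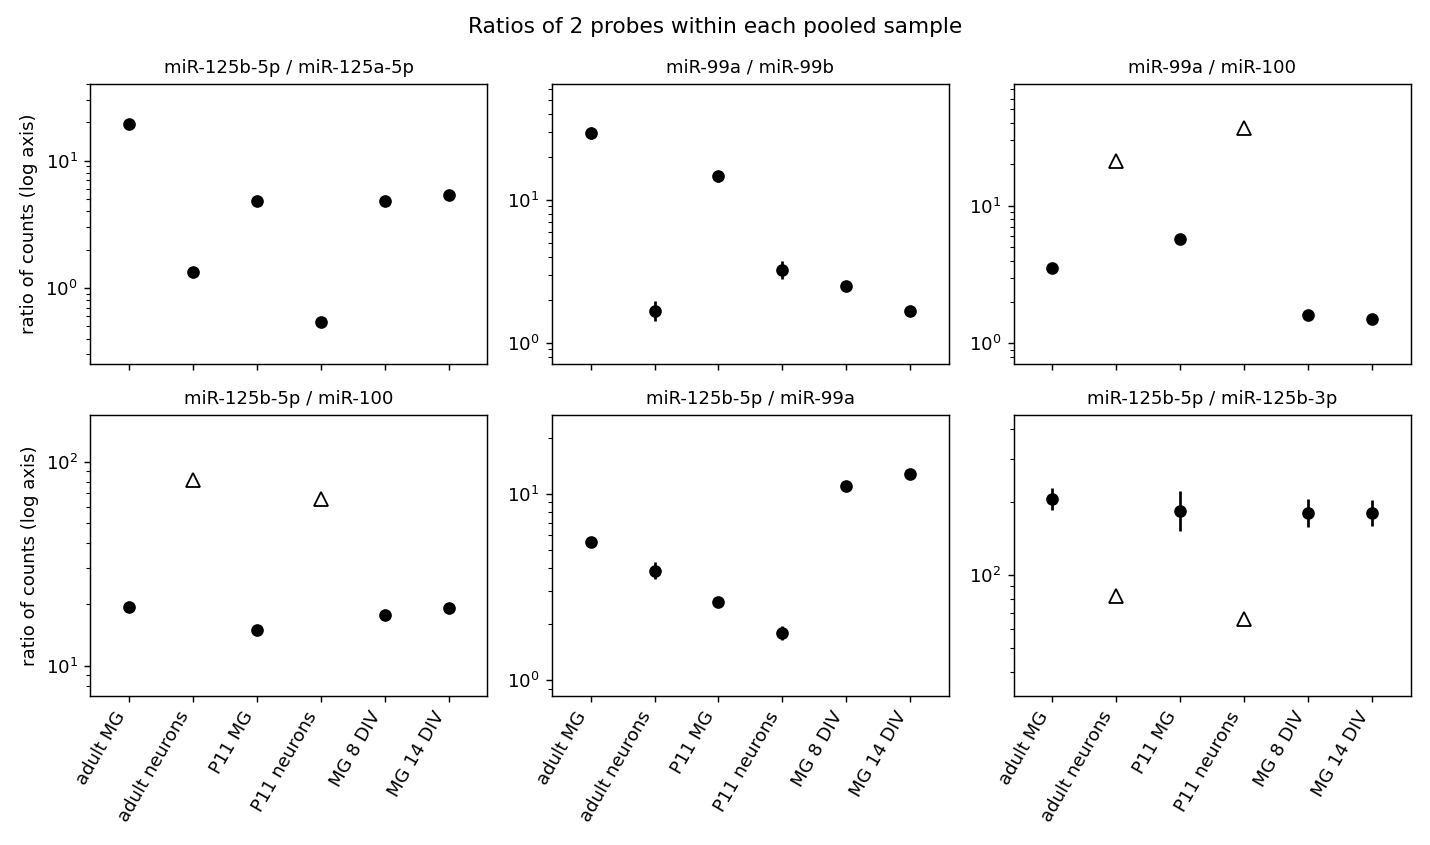
Ratios of counts of 2 probes within each pooled sample (log axes), with limits from exact Poisson intervals; open triangles are lower bounds, where the second probe was at background. The ratio of miR-125b-5p to its 3p arm lies between 180 and 206 in the 4 MG samples, whereas miR-99a to miR-99b runs from 1.67 to 29.4 over the 6 samples.

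The let-7 miRNAs of the same clusters, let-7a, let-7c and let-7e, are made from further loci as well (let-7a and let-7c), so their counts are not those of the clusters alone. Their ratios are given with the housekeeping scaling, and directions and 2-fold calls move with the scaling. In adult MG against adult neurons none of the 3 passed 2-fold in either direction: let-7c was 1.70-fold higher, and let-7a and let-7e were 1.92-fold and 1.77-fold lower. The other scalings shift every log2 ratio of this comparison by -1.02 (Actb) to 2.38 (Gapdh). Relative to the panel median, the log2 ratios of let-7a, let-7c and let-7e were 0.73, 2.44 and 0.85 higher. In P11 MG, let-7c was 2.31-fold higher than in P11 neurons and the other two were within 1.10-fold. In adult against P11 MG, the 3 lay between 1.10-fold and 1.38-fold higher, and in the 3 comparisons with cultures none passed 2-fold. In adult against P11 neurons let-7a (2.12-fold) and let-7e (2.68-fold) were higher, but so were 76.9% of the 156 probes tested. Their log2 ratios lay 0.53 and 0.19 below the panel median, in places 114 and 91.

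let-7c and miR-99a, whose genes are 657 bases apart on chromosome 16, separated clearly: miR-99a exceeded let-7c in log2 ratio by 1.86 (1.67 to 2.05) in adult MG against adult neurons and differed from it by -1.35 (-1.45 to -1.24) at 8 DIV against P11 MG. In the same comparisons miR-125a-5p less let-7e was nearer to none, at 0.09 (-0.13 to 0.31) and 0.15 (-0.003 to 0.30). Elsewhere this pair differed by -0.65 (P11 MG against P11 neurons), -0.39 (adult against P11 MG) and 0.60 (14 DIV against adult MG). In adult against P11 neurons it differed by -1.12, where miR-99a less let-7c was -0.16 (-0.42 to 0.09). miR-125a-3p, the other arm of Mir125a, had 86 to 361 raw counts, above background in all 6 samples. The ratio of miR-125a-5p to it was 34.0 (29.8 to 39.0) at 8 DIV and 43.4 to 61.4 in the other samples. miR-10a and miR-10b, which resemble miR-99/100 in sequence (3 to 6 edits) but have another seed, were at background in every sample.

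For each member, the 3 probes with the closest profile over the 6 samples were sought among 157 probes above background in at least 3 samples, by the root-mean-square difference of log2 counts after each profile was centred on its mean. The closest to miR-125b-5p were miR-365 (0.41), miR-152 (0.48) and its own 3p arm (0.64). The closest to miR-125a-5p were its 3p arm (0.31), let-7e (0.38) and miR-146b (0.38), the first 2 of which come from its cluster. miR-99b lay nearest to miR-423-5p (0.34), miR-574-3p (0.36) and miR-296-5p (0.45), and miR-99a to miR-140 (0.41), miR-1927 (0.46) and miR-1960 (0.48). miR-100 had no close neighbour, with miR-125b-5p first at 0.98, and miR-125b-3p lay nearest to miR-720 (0.52), miR-130a (0.56) and miR-365 (0.58). These are descriptions over 6 samples that differ in cell class, depth and scaling. They rest in part on the background level: with values below background kept, the neighbours of every member changed in name or order. In that setting values at or under the mean of the negative controls were still raised to a small positive value. miR-100 in adult neurons, with 23 raw counts against a mean of 31.9, was among them, so its distances depend on that value. miR-125b-5p and miR-125b-3p became each other's closest probe (0.32). miR-125a-5p was then nearest to miR-146b (0.21), miR-125a-3p (0.31) and miR-374 (0.34), without let-7e. miR-99b was nearest to miR-423-5p (0.37), miR-125a-3p (0.50) and miR-125a-5p (0.50), miR-99a to miR-1959 (0.31), and miR-100 to miR-1933-5p at 2.00.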

How the data were processed

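Raw nCounter counts (NanoString mouse miRNA panel, 200 ng of total RNA per sample) were used as the authors deposited them, with 1 count per probe and sample. The deposited normalized values, read as a score, were made by the authors with nSolver 2.6 in 2 data sets from 4 housekeeping mRNAs, 8 negative and 6 positive controls; they are an alternative here, and fresh MG stand in both data sets, so that 8 deposited columns come from 6 pooled samples.

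From the counts, the mean of the negative controls was subtracted and each sample multiplied by a factor from its summed background-subtracted housekeeping mRNAs (adult MG 1, adult neurons 3.46, P11 MG 0.736, P11 neurons 1.20, 8 DIV 0.533, 14 DIV 0.490). Background was 2 SD of the negative controls after this subtraction, and lower values were set to it. Limits of a ratio combine the lower Poisson limit of one count with the upper limit of its partner and so cover more than 95%. Limits given for the members' median less the panel median are the medians of the members' limits, with the panel median held fixed. They are not limits of that median itself. Probes counted were above background in either sample of a comparison, and 2-fold was the size rule in place of a test. miRNAs named are all members, their let-7 partners, the other arm of Mir125a, miR-10a and miR-10b, the markers of other cell types, and the nearest probes of each member. The members and lists were chosen with earlier results of these data known. The steps were tested on simulated data. Scalings, background, filter, fold and culture label were varied. Python 3.11.15 with pandas 2.3.3, numpy 2.4.6 and scipy 1.17.1 was used, and sequences and loci came from RefSeq tables of GRCm38.p6.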

Additional observations from a re-analysis of the deposited data

How the results depend on the processing

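With 1 pooled sample per condition, no replicate could be left out, and no paired analysis was possible because each condition has 1 sample. B2m alone could not scale a comparison with neurons, where it was at background. The members' median log2 ratio less the panel median is the same under every scaling. Without background subtraction it became 3.43 in adult MG against adult neurons, 1.59 in P11 MG against P11 neurons, 0.87 at 8 DIV against P11 MG, 0.39 at 14 against 8 DIV and -0.31 at 14 DIV against adult MG. With the mean plus 2 SD subtracted it was 4.04, 2.28, 0.45 (adult against P11 MG), -1.03 (adult against P11 neurons), 0.14 (8 DIV against P11 MG) and -0.77 (14 DIV against adult MG). With values below background kept, except those at or under the mean of the negative controls, it was 2.06 for P11 MG against P11 neurons, 0.96 for adult against P11 MG and -0.87 for the neurons. Over all mouse miRNA probes it was 4.21, 2.03, 1.68, 0 (neurons, where probes at background in both samples set both medians) and 1.49 (8 DIV against P11 MG), and with at least 50 scaled counts 0.95 for adult against P11 MG. With days in vitro taken from the age label it was 1.15 at 8 DIV against P11 MG, -0.32 at 14 against 8 DIV and -0.90 at 14 DIV against adult MG. Apart from the 0 in neurons, these values changed sign only where both cultures were exchanged.

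Of the single ratios of at least 2-fold, these turned. miR-99b in adult MG against adult neurons became 0.24, 0.17 and 0.87 (log2) with the positive controls, the ligation controls and Gapdh alone. miR-125b-3p in P11 MG against P11 neurons became -0.060 with the ligation controls. In adult against P11 neurons, miR-99b became -0.43 (equal totals), -0.14 (top 100 probes) and -1.33 (ligation controls), and miR-125b-5p -0.27 and -1.18 (equal totals and ligation controls). At 14 DIV against adult MG, miR-100, miR-125b-5p and miR-125b-3p became 0.19, 0.16 and 0.36 with equal totals, and miR-99b -0.85 with B2m alone and -1.38 with the deposited values, where its difference from miR-125a-5p also turned to -1.53. The deposited values of miR-99b in culture do not follow from its raw counts; the causes of the other changes were not tested.

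Counts of members past 2-fold moved with the scaling, the fold, the filter or the culture label. In adult MG against adult neurons 3 to 5 members were higher and 0 to 2 lower; in P11 MG against P11 neurons 2 to 5 and 0 to 2; in adult against P11 MG 1 to 4 and 0; in adult against P11 neurons 0 to 4 each way; at 8 DIV against P11 MG 0 to 5 and 0 to 6; at 14 against 8 DIV 0 to 6 and 0 to 2; and at 14 DIV against adult MG 0 to 2 and 1 to 5. Counting precision limits miR-125b-3p most, the member with the lowest counts in MG.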
